A study of Saccharomyces cerevisiae with 10 samples.

Results

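The genes described are those of the phosphate regulon of budding yeast, a set of 10 listed genes (PHO84, PHO89, PHO5, PHO3, PHO8, PHO11, PHO12, SPL2, VTC3 and GIT1). They were found by gene symbol in the platform's annotation of the arrays. Of the 10 genes, 9 had a probe set, out of 5716 probe sets in all, and each of these 9 had 1. PHO12 had none of its own. The PHO11 probe set carries the suffix given to sets that may match several transcripts, and PHO11 and PHO12 are near-identical copies, so its value cannot be assigned to PHO11 alone.

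RNA levels of 4 strains were measured with 10 Affymetrix expression arrays, each hybridised with biotin-labelled cRNA. The strains were hpr1del (hpr1∆::kanMX4, 3 arrays), sub2del (sub2∆::HIS3, 2 arrays), tho2del (tho2∆::KanMX4, 2 arrays) and the wild type W303-1A (WT, 3 arrays). All 4 are MATa and share the alleles ade2-1, can1-100, his3-11,15, trp1-1 and ura3-1 and the same mutant allele of LEU2. Cells were taken in mid-log phase from liquid YPAD, a rich medium with adenine, and the labels mention no low-phosphate step. Each mutant is 1 named deletion strain, and the arrays of a strain are labelled biological replicates, with no word on whether cultures were grown side by side. P-values therefore measure the spread between these arrays. In the main fit all 4 strains share 1 spread per probe set. SEs and p-values between mutants thus also carry the spread of WT.

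Hpr1 and Tho2 are subunits of the THO complex, which binds transcribing RNA polymerase II, and Sub2 is the RNA helicase that joins THO to form TREX and hands mRNA on to export factors. The phosphate pathway is switched on when phosphate runs short. The inhibitor Pho81 then blocks the cyclin-dependent kinase Pho85 with its cyclin Pho80, and the activator Pho4 enters the nucleus and, with Pho2, turns on genes for phosphate uptake, secreted acid phosphatases and polyphosphate storage. PHO3 stands apart from this scheme, since it encodes an acid phosphatase repressed by thiamine.

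Each deleted gene had its lowest mean in its own strain, at 202 for HPR1, 79.2 for SUB2 and 252 for THO2, against 573, 12371 and 2467 in WT. Where their probes lie relative to the deletions was not analysed here. THO2 was also lower in hpr1del (1382) and sub2del (1186). HIS3 averaged 503, 347 and 498 in hpr1del, sub2del and tho2del and 2282 ± 879 (SD, n = 3) in WT. The labels list his3-11,15 for every strain and so give no reason for the higher level in WT. The low level in sub2del goes against its HIS3 marker. What lies behind these values was not tested. Of 5 MATa marker genes, MFA1 and MFA2 were filled on all 10 arrays, and STE2, STE6 and BAR1 were filled in hpr1del and WT and empty on every sub2del and tho2del array, so these markers check the mating type of those strains only in part. MFA1 was higher in hpr1del, sub2del and tho2del (log2 1.53, 1.60 and 2.67), as was MFA2 (1.02, 0.78 and 1.37). BAR1 was higher in hpr1del (1.33), where STE2 and STE6 were not called (0.53 and -0.32). The summed intensity of 4 MATalpha marker genes ranged from 1303 to 1438 in hpr1del, from 2790 to 4097 in sub2del and from 2081 to 2440 in tho2del, against 1041 to 1241 in WT, with empty cells counted as 0. Among them SAG1, the alpha-agglutinin gene, was higher in all 3 mutants (log2 0.72, 2.15 and 1.46 in hpr1del, sub2del and tho2del) and STE3, the a-factor receptor gene, lower in all 3 (-0.67, -0.48 and -0.50), while MF(ALPHA)1 read between 44.5 and 52.8 in the mutants and 51.3 in WT on average. MF(ALPHA)2 was lower in hpr1del (log2 -0.94) and not called in sub2del (-0.25) or tho2del (0.13). Of 4 diploid or meiotic marker genes, 2 of 4 tested were higher in hpr1del, 1 of 1 in sub2del and 2 of 2 in tho2del, among them IME2, a meiotic kinase gene, in hpr1del (log2 1.19) and tho2del (1.60). Over all probe sets tested 22.8%, 20.8% and 24.4% were higher in hpr1del, sub2del and tho2del. In hpr1del IME1 and SPO13 were not called (log2 -0.07 and 0.01), and IME1 was empty on every sub2del and tho2del array. The part of these differences in the values of the phosphate genes was not tested. Median intensity lay between 1346 and 1541 on the 10 arrays, and precision is limited by how few arrays there are. Arrays of hpr1del, sub2del and tho2del were close replicates, with log2 SDs averaging 0.07, 0.10 and 0.09 over probe sets, and those of WT averaged 0.21. Empty cells made up 5.63% of the values, 479 to 811 on the sub2del and tho2del arrays, 414 in WT replicate 2 and 7 to 66 on the other arrays. Among the phosphate genes, PHO89 was empty in sub2del replicate 1, PHO5 in sub2del replicate 2 and GIT1 in sub2del replicate 2 and tho2del replicate 2.

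In tho2del PHO84, PHO5, SPL2, PHO11 and VTC3 were lower than in WT, and PHO84 had the lowest log2 change of all 4752 probe sets tested. PHO89 was not called there (log2 0.24), and GIT1, not tested, lay above WT on its 1 filled array. In hpr1del PHO84 and PHO11 did not differ from WT past the threshold, and PHO5, PHO89, VTC3 and GIT1 were higher. SPL2 and PHO8 were lower in hpr1del (log2 -0.36 and -0.22). The calls of PHO5, SPL2 and PHO8 in hpr1del were lost when some single arrays were left out. In sub2del PHO84, SPL2, PHO11, VTC3 and PHO8 were lower than in WT, PHO84 by less than in tho2del. PHO89, PHO5 and GIT1, each with 1 filled array in sub2del, were not tested there. Their differences of means from WT were 0.63, 0.60 and 1.39. PHO3 was higher in all 3 mutants. Tests used limma on log2(intensity + 16) with Benjamini-Hochberg adjustment over all probe sets tested, and a change is called where the adjusted p is under 0.05. Log2 changes and folds are those of (intensity + 16) and understate the changes of dim genes.

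**Figure D1:**
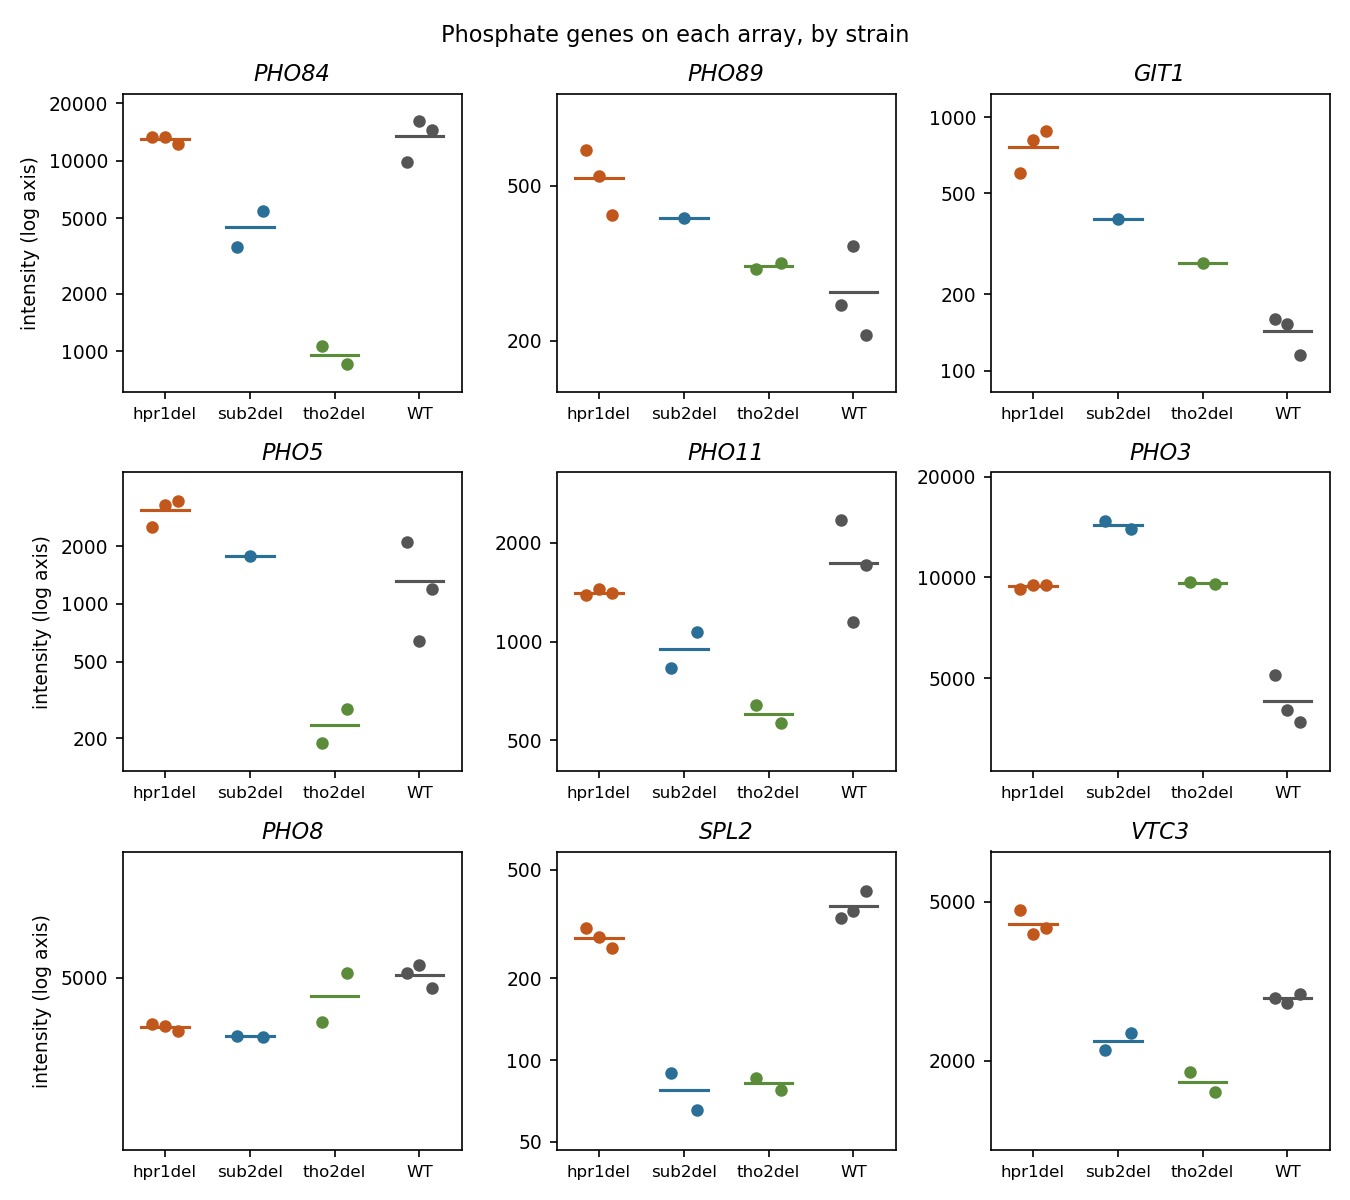
Intensity of the 9 phosphate genes with a probe set on each array, 1 point per array, with the mean of each strain as a line. The y axes are logarithmic and differ in range between panels, and missing points are empty cells. PHO84 lay between 852 and 1059 in tho2del, below the arrays of every other strain, and PHO3 lay above WT on every mutant array.

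PHO84 encodes the high-affinity phosphate transporter of the plasma membrane, which yeast needs most when phosphate is scarce. Its intensity was 13279, 13287 and 12271 in hpr1del, 3506 and 5457 in sub2del, 1059 and 852 in tho2del, and 9865, 16099 and 14458 in WT. The arrays of hpr1del lay within the range of WT, those of sub2del below every WT array, and those of tho2del below every array of sub2del. The log2 change was -3.77 ± 0.24 (SE) in tho2del, a 13.7-fold lower level (limma adjusted p = 8.04e-06). In sub2del it was -1.59 ± 0.24, a 3.01-fold lower level (limma adjusted p = 0.000448). In hpr1del the log2 difference was -0.03 ± 0.21 (limma adjusted p = 0.923), with a 95% interval from -0.51 to 0.45. Within the arrays that had many empty cells, WT replicate 2 being the only WT array among them, the log2 changes were -4.06 in tho2del and -1.88 in sub2del. Those of hpr1del against the other WT arrays gave 0.12.

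The mutants also differed from each other in PHO84. It was 13.4-fold lower in tho2del than in hpr1del (log2 -3.75 ± 0.24, limma adjusted p = 4.56e-05), the lowest log2 change among the 4781 probe sets tested between these strains. It was 4.55-fold higher in sub2del than in tho2del (2.18 ± 0.26, limma adjusted p = 0.00118), which ranked 4497 of 4498 from the lowest. It was 2.95-fold lower in sub2del than in hpr1del (-1.56 ± 0.24, limma adjusted p = 0.000862). The directions and calls of PHO84 in these 3 comparisons and in sub2del and tho2del against WT held in all 20 alternative settings.

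PHO89 encodes a high-affinity transporter that takes up phosphate with sodium. It read 616, 530 and 421 in hpr1del, 412 on the 1 filled array of sub2del, 306 and 317 in tho2del, and 246, 349 and 207 in WT. The hpr1del arrays lay above all WT arrays, and the tho2del arrays lay within the WT range. PHO89 rose in hpr1del by 0.94 ± 0.20 on the log2 scale, 1.92-fold (limma adjusted p = 0.00653). In tho2del the log2 difference from WT was 0.24 ± 0.22 (limma adjusted p = 0.384), and it turned to -0.16 against WT replicate 2 alone. In sub2del no test was made, and the difference of means was 0.63. PHO89 was lower in tho2del than in hpr1del (log2 -0.70 ± 0.22, limma adjusted p = 0.0408), a call that was lost without hpr1del replicate 1 (-0.58, limma adjusted p = 0.113) or replicate 2 (-0.68, 0.103) and without tho2del replicate 1 (-0.68, 0.161) or replicate 2 (-0.72, 0.140). With arrays blocked by their empty cells it was -1.29. The high-affinity transporter genes PHO84 and PHO89 thus had different orders of level across the strains, with tho2del far below WT only for PHO84.

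GIT1 encodes the permease for glycerophosphoinositol, which cells can use as a source of phosphate and inositol. It read 600, 812 and 885 in hpr1del, 397 on the 1 filled array of sub2del, 267 on the 1 filled array of tho2del, and 160, 153 and 115 in WT. Every filled mutant array lay above all WT arrays. The log2 change in hpr1del was 2.29 ± 0.18, 4.90-fold (limma adjusted p = 0.000149), a value that 0.0883% of the 5663 probe sets tested reached. For sub2del and tho2del the rule of 2 values per strain left no test. The differences of mean log2 values from WT were 1.39 in sub2del and 0.84 in tho2del, each resting on 1 array. From hpr1del they were -1.45 in tho2del and -0.90 in sub2del.

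PHO5 encodes the main repressible acid phosphatase of the periplasm and is a classic model gene of Pho4-driven transcription. It read 2512, 3260 and 3449 in hpr1del, 1786 on the 1 filled array of sub2del, 189 and 283 in tho2del, and 2095, 642 and 1203 in WT. The hpr1del arrays lay above and the tho2del arrays below all WT arrays, although WT itself spanned 3.26-fold. PHO5 fell by 2.27 ± 0.44 on the log2 scale in tho2del, 4.81-fold (limma adjusted p = 0.00309). Against WT replicate 2 alone, the WT array with many empty cells and the lowest PHO5, the log2 change was -1.41 (limma adjusted p = 0.0187). PHO5 rose in hpr1del by 1.36 ± 0.39, 2.57-fold (limma adjusted p = 0.0238), and by 0.93 against the other WT arrays (0.0324). That call was lost without hpr1del replicate 2 (1.31, limma adjusted p = 0.0724), hpr1del replicate 3 (1.27, 0.0758) or WT replicate 3 (1.38, 0.0559). The sub2del array lay within the WT range, with a difference of means of 0.60.

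The difference of PHO5 between the THO subunit mutants was larger than either difference from WT. It was 12.4-fold lower in tho2del than in hpr1del (log2 -3.63 ± 0.44, limma adjusted p = 0.000816), second from the lowest of the 4781 probe sets after PHO84. With arrays blocked by their empty cells it was -2.34 (limma adjusted p = 0.0149). Between sub2del, with 1 filled array, and tho2del no test was made, and the difference of means was 2.86.

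The probe set of PHO11, for the secreted acid phosphatases PHO11 and perhaps PHO12, read 1383, 1447 and 1404 in hpr1del, 831 and 1072 in sub2del, 642 and 564 in tho2del, and 2343, 1144 and 1718 in WT. The sub2del and tho2del arrays lay below all WT arrays, and hpr1del within them. The log2 change was -1.44 ± 0.25 in tho2del, 2.72-fold lower (limma adjusted p = 0.00133), and -0.91 against WT replicate 2 alone (0.00739). In sub2del it was -0.81 ± 0.25 (limma adjusted p = 0.0209), a call lost without sub2del replicate 1 (-0.63, limma adjusted p = 0.141) and against WT replicate 2 alone (-0.27, 0.284). In hpr1del the log2 difference was -0.24 ± 0.22 (limma adjusted p = 0.422). It was called without WT replicate 2 (-0.50, limma adjusted p = 0.0291) and was 0.01 without WT replicate 1. PHO11 was 2.31-fold lower in tho2del than in hpr1del (log2 -1.21 ± 0.25, limma adjusted p = 0.00640), which was lost without tho2del replicate 2 (-1.12, 0.0531) and with arrays blocked by their empty cells (-0.41, 0.275). The sub2del arrays lay between the tho2del and hpr1del arrays, with log2 differences of 0.64 ± 0.27 from tho2del (limma adjusted p = 0.137) and -0.57 ± 0.25 from hpr1del (0.0855). Both were called without WT replicate 1 (limma adjusted p = 0.0303 and 0.0182) or WT replicate 2 (0.0287 and 0.0141). The WT arrays did not rank alike in PHO84 and the acid phosphatases, since WT replicate 1 was lowest in PHO84 and highest in PHO5 and PHO11, and WT replicate 2 was highest in PHO84 and lowest in the others.

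PHO3 lies next to PHO5 in the R64 gene order and encodes a closely related acid phosphatase. It read 9232, 9500 and 9510 in hpr1del, 14705 and 13924 in sub2del, 9723 and 9577 in tho2del, and 5099, 4012 and 3692 in WT. Every mutant array lay above every WT array, and sub2del lay above the other mutants. PHO3 rose 3.38-fold in sub2del (log2 1.76 ± 0.12, limma adjusted p = 9.20e-06), 2.28-fold in tho2del (1.19 ± 0.12, 7.51e-05) and 2.22-fold in hpr1del (1.15 ± 0.11, 0.000102). These 3 calls held in all 20 alternative settings. In tho2del PHO3 and PHO5 thus moved in opposite directions, with log2 changes of 1.19 and -2.27. PHO3 was 1.52-fold higher in sub2del than in hpr1del (log2 0.60 ± 0.12, limma adjusted p = 0.00376) and 1.48-fold higher than in tho2del (0.57 ± 0.13, 0.0195). The call against tho2del was lost without sub2del replicate 1 (0.53, limma adjusted p = 0.0889) or 2 (0.61, 0.0694) and without tho2del replicate 1 (0.58, 0.0778) or 2 (0.56, 0.101). Between tho2del and hpr1del the log2 difference was 0.04 (limma adjusted p = 0.836).

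PHO8 encodes the alkaline phosphatase of the vacuole. It read 4364, 4338 and 4270 in hpr1del, 4208 and 4196 in sub2del, 4390 and 5069 in tho2del, and 5077, 5195 and 4845 in WT. The hpr1del and sub2del arrays lay below all WT arrays, and those of tho2del overlapped them. The log2 change was -0.22 ± 0.07 in hpr1del (limma adjusted p = 0.0291) and -0.26 ± 0.08 in sub2del (0.0164), folds of 1.16 and 1.20. The call in hpr1del was lost without hpr1del replicate 1, 2 or 3 (limma adjusted p = 0.0677, 0.0833 and 0.0932, log2 -0.23, -0.22 and -0.21) and without WT replicate 2 (-0.20, 0.0615). The call in sub2del was lost without sub2del replicate 1 (-0.26, limma adjusted p = 0.0669) or 2 (-0.26, 0.0733) and after array medians were subtracted (-0.12, 0.214). In tho2del the log2 difference was -0.09 ± 0.08 (limma adjusted p = 0.321).

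SPL2 encodes a small protein that restrains low-affinity phosphate uptake, and in its coding length of 447 bases it is the shortest of the 10 genes, whose others range from 1404 to 2508. It read 304, 284 and 257 in hpr1del, 89.8 and 65.3 in sub2del, 86.2 and 77.8 in tho2del, and 333, 353 and 417 in WT. All mutant arrays lay below all WT arrays, and those of sub2del and tho2del overlapped each other far below hpr1del. SPL2 fell 4.12-fold in sub2del (log2 -2.04 ± 0.14, limma adjusted p = 7.65e-06) and 3.90-fold in tho2del (-1.96 ± 0.14, 1.18e-05). In hpr1del it fell by 0.36 ± 0.12 on the log2 scale, 1.28-fold (limma adjusted p = 0.0395). The call in hpr1del was lost in 12 of 19 settings, among them quantile normalization (-0.14, limma adjusted p = 0.625) and an offset of 1 (-0.38, 0.0503). Leaving out single arrays ended it for hpr1del replicate 1 (-0.42, limma adjusted p = 0.0527), 2 (-0.37, 0.0937) and 3 (-0.30, 0.133), for WT replicate 2 (-0.39, 0.0563) and 3 (-0.27, 0.119), and for either tho2del array (-0.36, 0.0544). Between the mutants SPL2 was 3.03-fold lower in tho2del than in hpr1del (log2 -1.60 ± 0.14, limma adjusted p = 0.000122) and 3.20-fold lower in sub2del than in hpr1del (-1.68 ± 0.14, 5.09e-05). Between sub2del and tho2del the log2 difference was -0.08 ± 0.15 (limma adjusted p = 0.731), with a 95% interval from -0.42 to 0.26.

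VTC3 encodes a subunit of the vacuolar transporter chaperone complex, which makes polyphosphate. It read 4766, 4143 and 4294 in hpr1del, 2131 and 2338 in sub2del, 1869 and 1670 in tho2del, and 2868, 2784 and 2931 in WT. The 4 strains did not overlap, with hpr1del above WT and both other mutants below it. VTC3 rose in hpr1del by 0.62 ± 0.08 on the log2 scale, 1.53-fold (limma adjusted p = 0.000415). It fell in tho2del by 0.69 ± 0.09, 1.61-fold (limma adjusted p = 0.000241), and in sub2del by 0.36 ± 0.09, 1.28-fold (0.00733). The call in sub2del was lost without sub2del replicate 1 (-0.29, limma adjusted p = 0.0639), against WT replicate 2 alone (-0.32, 0.0513) and after array medians were subtracted (-0.22, 0.0617). VTC3 was 2.47-fold lower in tho2del than in hpr1del (log2 -1.31 ± 0.09, limma adjusted p = 4.99e-05) and 1.96-fold lower in sub2del than in hpr1del (-0.97 ± 0.09, 7.95e-05). The difference between sub2del and tho2del was small (0.33 ± 0.10, limma adjusted p = 0.0409). It was lost in 9 of 20 settings, among them leaving out sub2del replicate 1 (0.40, 0.0679) or 2 (0.27, 0.204), tho2del replicate 1 (0.42, 0.0608) or 2 (0.25, 0.220), hpr1del replicate 2 or 3 (0.33, 0.0635 and 0.0733) and WT replicate 3 (0.33, 0.0530).

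**Figure D2:**
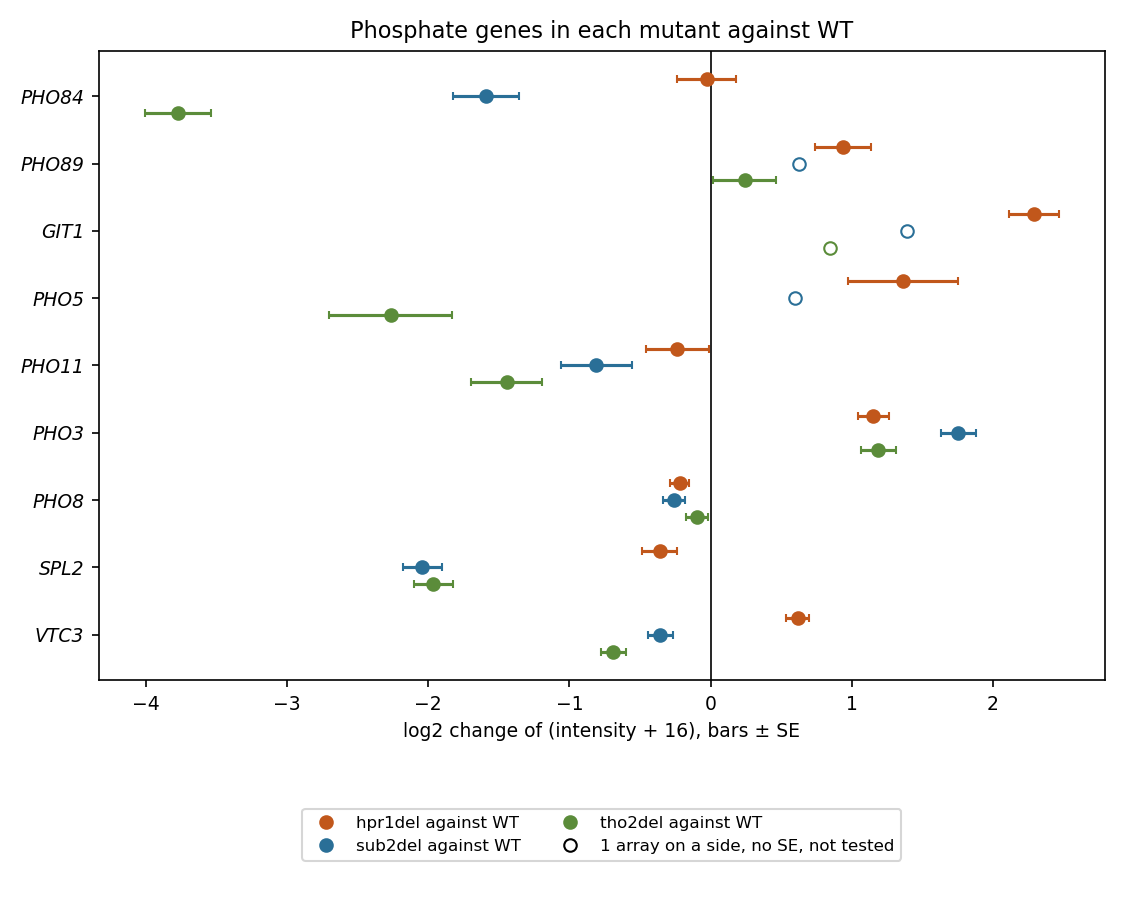
Log2 change of (intensity + 16) of each phosphate gene in hpr1del, sub2del and tho2del against WT, with bars of ± 1 SE. Open points are differences of means with 1 filled array on the mutant side, which were not tested. PHO84 lay at -3.77 in tho2del and -0.03 in hpr1del, while PHO3 lay between 1.15 and 1.76 in the 3 mutants.

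In counts, 5 of 9 tested members were higher and 2 lower in hpr1del, where 45.6% of all probe sets tested were called (22.8% higher and 22.8% lower). In sub2del 1 of 6 tested members was higher and 5 lower, where 61.2% were called (20.8% higher and 40.4% lower). In tho2del 1 of 8 was higher and 5 lower, where 57% were called (24.4% higher and 32.6% lower). With shares this high over all probe sets, the number of members called is not a result about them. The median log2 change of the tested members was 0.62 in hpr1del, -0.58 in sub2del and -1.07 in tho2del, beside -0.01, -0.16 and -0.06 over all probe sets. These medians rest on different members, 9, 6 and 8 of them, since genes with empty cells were not tested. Left out were PHO89, PHO5 and GIT1 in sub2del (differences of means from WT 0.63, 0.60 and 1.39) and GIT1 in tho2del (0.84). All of these were positive, so the medians should not be compared between strains. In sub2del the median of all probe sets was -0.03 after array medians were subtracted, so the small changes there (VTC3 and PHO8) should be read relative to that shift. Calls in sub2del were 34% higher as deposited and 46.8% higher after the subtraction. The 3 comparisons share the WT arrays, so their members' values stand side by side and are not independent of each other.

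**Figure D3:**
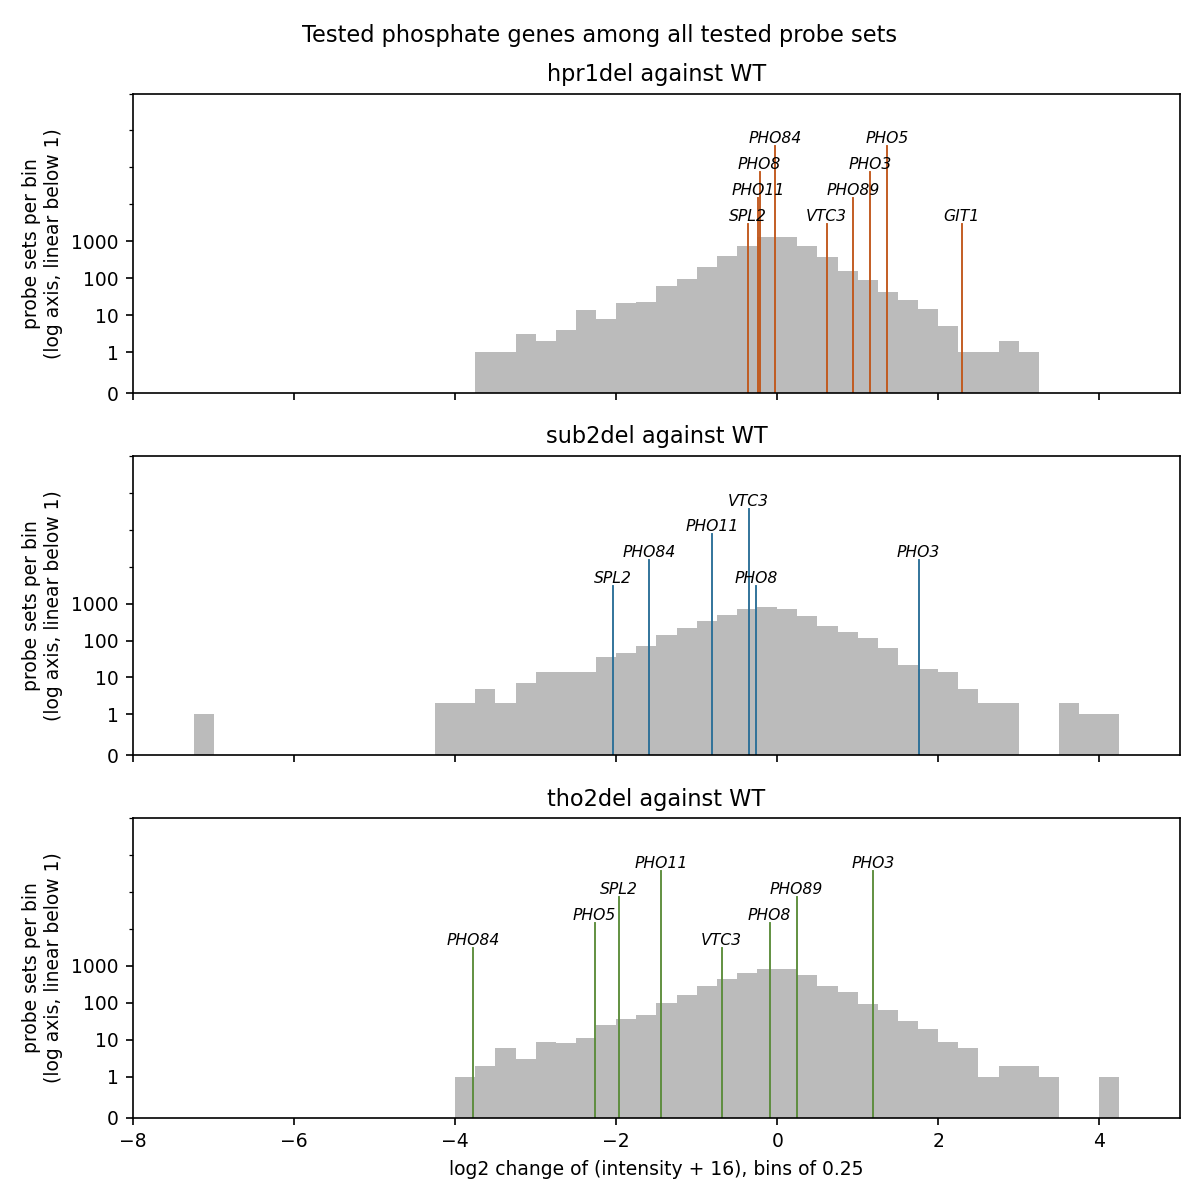
Distribution of log2 changes over all tested probe sets in each mutant against WT (grey bars, bins of 0.25, y axis logarithmic above 1), with the tested phosphate genes as lines of arbitrary height. In tho2del PHO84 stood at the low end of all 4752 probe sets, at -3.77, and in hpr1del GIT1 stood near the high end, at 2.29.

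Between the mutants, 6 of 8 tested members were lower in tho2del than in hpr1del and 0 were higher, where 37.6% of all probe sets tested were called (15.4% higher and 22.3% lower). In this comparison PHO84 and PHO5 took the lowest places, and SPL2 and VTC3 lay within the lowest 0.607% and 1.17%. In sub2del against hpr1del 3 of 6 were lower (PHO84, SPL2 and VTC3) and 1 higher (PHO3), where 51.6% were called (16% higher and 35.6% lower). In sub2del against tho2del 3 of 6 were higher (PHO84, PHO3 and VTC3) and 0 lower, where 20.8% were called (8.56% higher and 12.2% lower). That last split depends on scaling. Higher calls made up 41.1% of those between sub2del and tho2del without further scaling, 71% with quantile normalization and 71.3% once array medians were subtracted. Between tho2del and hpr1del they made up 40.8% without further scaling and 29.7% with quantile normalization. All hpr1del arrays had few empty cells (7 to 12), and all sub2del and tho2del arrays had many (479 to 811). In comparisons with hpr1del the strain and this array group therefore cannot be told apart. The block for empty cells links the groups only through WT, with 1 WT array on the side with many.

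**Figure D4:**
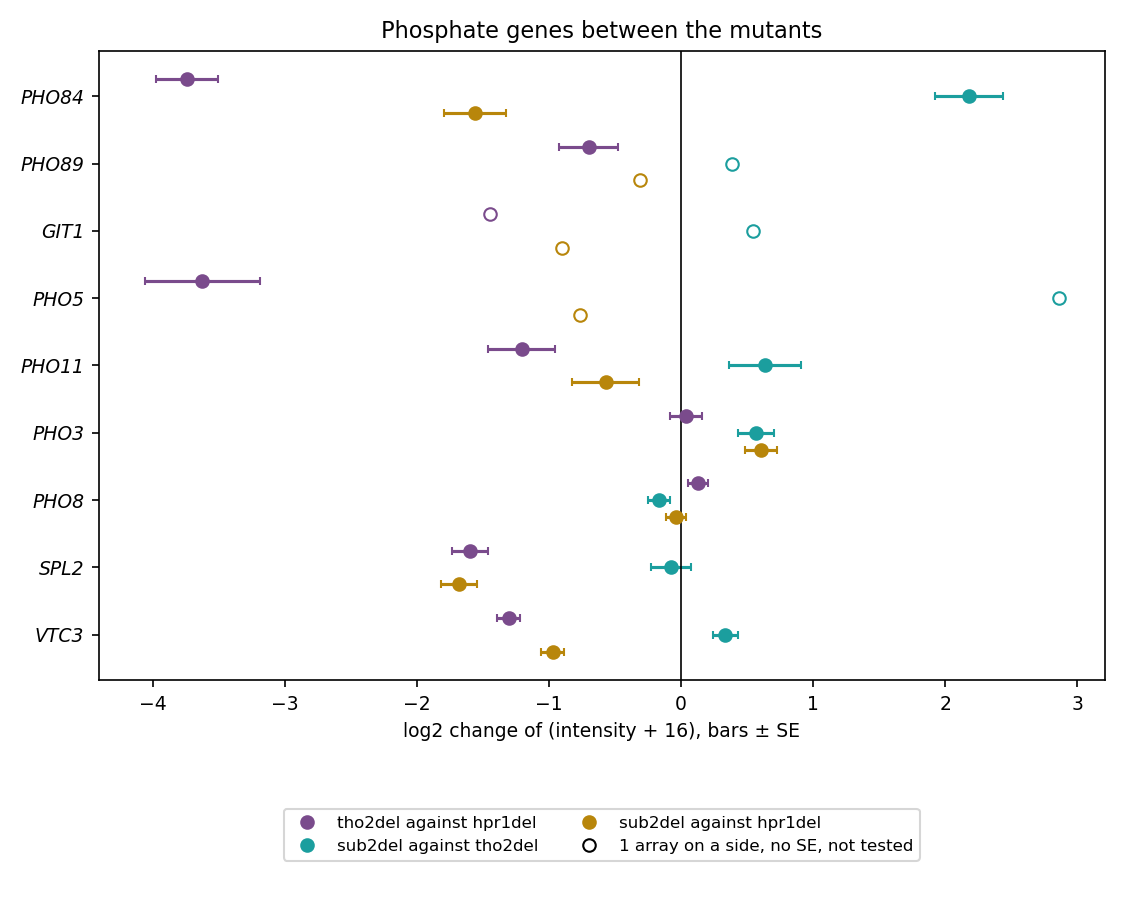
Log2 change of (intensity + 16) of each phosphate gene in tho2del against hpr1del, sub2del against tho2del and sub2del against hpr1del, with bars of ± 1 SE. Open points had 1 filled array on a side and were not tested. PHO84 and PHO5 were lowest in tho2del against hpr1del, at -3.75 and -3.63, and SPL2 lay near 0 only between sub2del and tho2del.

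The counts of other pathway genes that follow stand beside calls over all probe sets in hpr1del (22.8% higher, 22.8% lower), in sub2del (20.8% higher, 40.4% lower) and in tho2del (24.4% higher, 32.6% lower), and with lists this short no count is read as particular to a list. For single genes the alternative settings were run on the members only. How far the calls of the listed genes depend on scaling or on single arrays was not tested. Of 12 signalling genes, 4 rose and 1 fell of 12 tested in hpr1del (median log2 0.11), 1 rose and 5 fell of 9 in sub2del (-0.39), and 3 rose and 5 fell of 11 in tho2del (-0.01). PHO2, the homeodomain partner of Pho4, rose in all 3 mutants, with means of 1090 ± 16.5, 1227 ± 88.9 and 1182 ± 169 in hpr1del, sub2del and tho2del, against 582 ± 82.4 in WT (SD; log2 0.90, 1.06 and 1.00, limma adjusted p = 0.000385, 0.000126 and 0.000223). PHO81, the inhibitor of the Pho80-Pho85 kinase and itself a target of the pathway, rose in hpr1del (log2 0.31 ± 0.07, limma adjusted p = 0.00869) and fell in sub2del (-0.43 ± 0.08, 0.00184) and tho2del (-0.32 ± 0.08, 0.0103). PHO85, the kinase gene, fell in all 3 mutants (log2 -0.30, -0.64 and -0.69 in hpr1del, sub2del and tho2del, limma adjusted p = 0.0211, 0.000553 and 0.000419). PHO4 itself, singled out after its values were seen, fell in sub2del (log2 -0.60, limma adjusted p = 0.0174) and tho2del (-0.58, 0.0220), and in hpr1del its log2 difference was -0.35 (0.106).

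The low-affinity transporter genes PHO87 and PHO90, for the plasma membrane, and PHO91, for the vacuole, are not part of the starvation response. All 3 fell in hpr1del, with log2 changes of -0.67 for PHO87, -0.52 for PHO90 and -0.37 for PHO91. PHO87 also fell in sub2del (log2 -0.88 ± 0.07, limma adjusted p = 2.28e-05) and tho2del (-0.70 ± 0.07, 8.93e-05). PHO90 rose in sub2del, to 6954 ± 106 against 5231 ± 99.4 in WT (log2 0.41, limma adjusted p = 0.00132), and PHO91 fell there by 0.30. In tho2del neither PHO90 nor PHO91 was called (log2 -0.16 and -0.14).

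Of the polyphosphate genes besides VTC3, 6 of 8 listed were measured. VTC1, a small subunit of the polyphosphate-making complex, rose in hpr1del (log2 0.34, limma adjusted p = 0.0131) and fell in sub2del (-0.28, 0.0325) and tho2del (-0.44, 0.00498), as VTC3 did. The small fall in sub2del should be read beside the median of all probe sets there, -0.16. VTC4, its catalytic subunit, rose in hpr1del (0.31, limma adjusted p = 0.00956) and sub2del (0.25, 0.0290) and fell in tho2del, to 2189 ± 140 against 3654 ± 117 in WT (-0.74, 0.000117). VTC2 fell in all 3 mutants, by 0.26, 0.60 and 0.74 in hpr1del, sub2del and tho2del. PPX1, an exopolyphosphatase gene, rose in sub2del (0.26) and tho2del (0.39).

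Of the other genes listed as Pho4 targets, PHM8, a lysophosphatidic acid and nucleotide phosphatase gene, rose in hpr1del (log2 0.50 ± 0.08, limma adjusted p = 0.00177) and fell in sub2del (-0.64 ± 0.09, 0.000459) and tho2del (-0.92 ± 0.09, 7.58e-05). GDE1, a glycerophosphodiester hydrolase gene that acts after Git1, rose in hpr1del, to 3187 ± 93.7 against 1842 ± 366 in WT (log2 0.80, limma adjusted p = 0.00394). It was empty in sub2del. In tho2del its 1 value was 3232, above every WT array, and no test was made. GPP2 (HOR2), a glycerol phosphatase gene also known for its osmotic control, fell in all 3 mutants (log2 -1.08, -1.59 and -1.39 in hpr1del, sub2del and tho2del). PHM6 fell in hpr1del (log2 -0.69, limma adjusted p = 0.0261) and was dim on every array, at 102 ± 5.72 in WT. Of this list 2 rose and 2 fell of 6 tested in hpr1del, 0 rose and 4 fell of 4 in sub2del, and 0 rose and 2 fell of 4 in tho2del, where 22.8%, 40.4% and 32.6% of all probe sets tested fell.

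**Figure D5:**
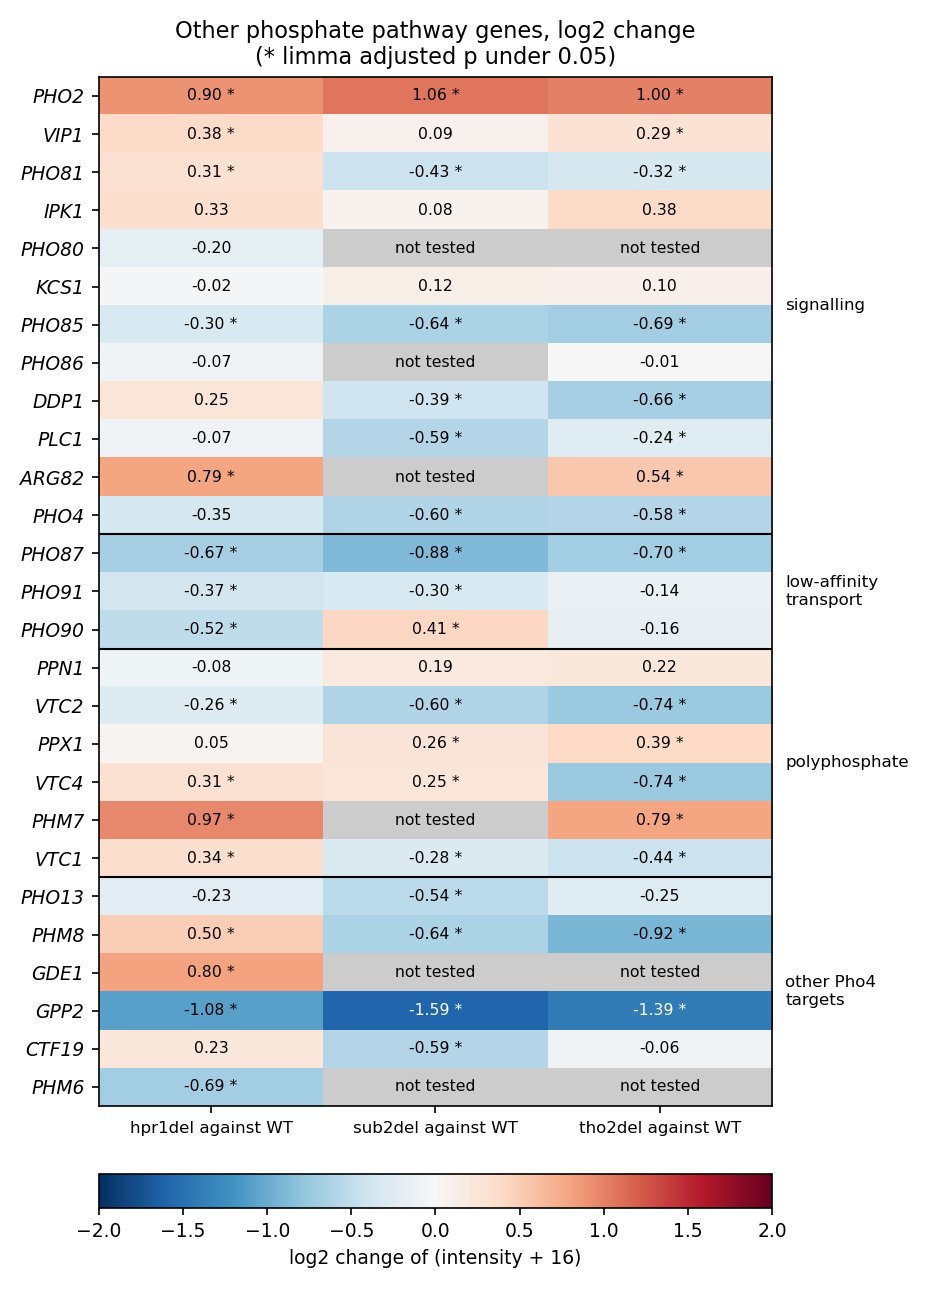
Log2 change of (intensity + 16) of the other listed phosphate pathway genes in each mutant against WT, grouped as signalling, low-affinity transport, polyphosphate and other Pho4 targets. Red is higher and blue lower than WT, grey was not tested, and an asterisk marks a limma adjusted p under 0.05. PHO81, VTC1 and PHM8 rose in hpr1del and fell in sub2del and tho2del, and PHO2 rose and PHO85, VTC2, PHO87 and GPP2 fell in all 3.

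Genes that respond to thiamine were listed because PHO3 does. Of 21 listed, 16 were measured; 4 rose and 2 fell of 16 tested in hpr1del (median log2 0.04), 2 rose and 5 fell of 14 in sub2del (-0.09), and 3 rose and 4 fell of 12 in tho2del (0.23). Over all probe sets 45.6%, 61.2% and 57% were called in hpr1del, sub2del and tho2del. PET18 rose in all 3 mutants, as PHO3 did (log2 1.08, 0.79 and 1.09 in hpr1del, sub2del and tho2del, limma adjusted p = 0.00399, 0.0197 and 0.00477). THI3, a regulator of thiamine genes, fell in all 3 mutants (log2 -0.74, -1.11 and -0.99 in hpr1del, sub2del and tho2del). SNZ3, measured by a probe set that can bind its copies too, rose in all 3 (1.81, 0.98 and 0.69).

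Inositol and phospholipid genes were listed because of GIT1. In hpr1del 8 rose and 3 fell of 15 tested (median log2 0.44), in sub2del 1 rose and 2 fell of 10 (-0.02), and in tho2del 3 rose and 2 fell of 10 (0.11), where over all probe sets hpr1del had 22.8% higher and 22.8% lower, sub2del 20.8% higher and 40.4% lower, and tho2del 24.4% higher and 32.6% lower. OPI3, a phosphatidylcholine synthesis gene, rose in hpr1del, to 8377 ± 300 against 4368 ± 105 in WT (log2 0.94 ± 0.07, limma adjusted p = 5.10e-05), and INO4, which encodes a subunit of the activator of such genes, rose in all 3 mutants (0.68, 0.45 and 0.81 in hpr1del, sub2del and tho2del). The phospholipase B genes PLB1 and PLB3, whose products release glycerophosphodiesters, fell in all 3, PLB3 by 0.78, 0.82 and 0.76 on the log2 scale in hpr1del, sub2del and tho2del.

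Among 4136 named probe sets filled on all 10 arrays, the profile closest to that of PHO84 was THO2, deleted in tho2del, with a root mean square difference of 0.61 on the log2 scale after the WT mean was subtracted from each. It was followed by MET17 (0.72), SAM1 (0.76), SAM2 (0.76) and MET6 (0.85), genes of methionine and S-adenosylmethionine synthesis. SAM1 averaged -0.18, -1.32 and -2.17 on the log2 scale in hpr1del, sub2del and tho2del, where PHO84 was at -0.03, -1.59 and -3.77. In the same order MET17 averaged -0.90, -2.10 and -2.75, SAM2 0.15, -1.99 and -2.17, and MET6 -0.32, -3.13 and -2.78. MET6 was thus lower in sub2del than in tho2del, unlike PHO84. Closest to GIT1 over its 8 filled arrays were SNZ3 (0.39), YGR240C-A (0.43), PCL1 (0.48), YML131W (0.48) and YOX1 (0.51).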

How the data were processed

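Total RNA of 10 samples was measured on Affymetrix arrays. The values were the authors' deposited table, 1 linear intensity per probe set and array; how background was corrected, probes summarised and arrays scaled, and why 3220 cells are empty, is not given in the sources used here. Probe sets were named through the platform annotation (5498 of 5716 had 1 gene), with symbols updated to the R64 gene table by gene identifier. No coordinates are printed, since no source used here names the array's build, and no sequences were used.

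An offset of 16 was added and log2 taken. With limma 3.58.1 in R 4.3.3, a mean per strain was fitted to all 10 arrays, with empirical Bayes moderation; empty cells were left out, and a probe set was tested where both strains had 2 values or more. P-values were adjusted by Benjamini-Hochberg over all probe sets tested and called under 0.05. The fit was run on simulated data with equal noise in all strains. These data differ from that, as WT spread more than the mutants, so the run does not check the shared spread.

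The members, lists and tests were chosen with earlier results of these data known. All members were named; of lists of up to 8 measured genes any could be, and of longer lists the 4 with the lowest adjusted p in a comparison, besides the 5 profiles nearest to PHO84 and GIT1. Alternatives were offsets of 1 and 64, quantile normalization, subtraction of array medians, leaving out the dimmest 25% of probe sets, only the arrays compared, array weights, a replicate block, a block for arrays with over 200 empty cells, and leaving out each array. With the empty-cell block, hpr1del is set against WT replicates 1 and 3, and sub2del and tho2del against WT replicate 2.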

Additional observations from a re-analysis of the deposited data

Results flagged for a closer look

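PHO5 and VTC3 lay on opposite sides of WT in different mutants, and the difference between those mutants was also called. The size of each such difference follows from the changes of both mutants from WT, so it is no separate support. PHO5 had a log2 change of -2.27 in tho2del and 1.36 in hpr1del, with a difference of -3.63 between them (limma adjusted p = 0.000816; tho2del arrays at 189 and 283, hpr1del arrays from 2512 to 3449). The PHO5 call in hpr1del was lost in 4 of 20 settings. With arrays blocked by their empty cells the PHO5 difference between the mutants was -2.34. VTC3 was at -0.69 in tho2del and 0.62 in hpr1del, a difference of -1.31 (limma adjusted p = 4.99e-05). In sub2del VTC3 was at -0.36, a difference of -0.97 from hpr1del (limma adjusted p = 7.95e-05).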

How the results depend on the processing

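Under the alternatives listed above, 727 of 817 values of single members kept their direction and side of the threshold. This share overstates how stable the values are. Leaving out an array of a strain outside a comparison cannot move its log2 change, only its SE and adjusted p. The numbers of settings given for single genes include such fits too. They also include a setting added after the data were seen, described at the end. The number of members called against WT moved over 1.5-fold in these settings: in hpr1del, from 7 to 4 without the dimmest 25% of probe sets, which drops PHO89, SPL2 and GIT1 from the test, and to 4 with the replicate block; in sub2del, from 6 to 3 after array medians were subtracted. Leaving out single arrays gave 4 to 7 in hpr1del, 3 to 6 in sub2del, 6 to 7 in tho2del, 5 to 6 in tho2del against hpr1del, 1 to 4 in sub2del against tho2del and 4 to 5 in sub2del against hpr1del. No pairing by replicate number was seen, as 0 of 13 same-numbered pairs had correlated deviations over 0.1 and 2 of 10 arrays correlated best with their own number. Deviations within a strain sum to 0, so these correlations depend on each other and cannot tell how cultures were grown. With the replicate block PHO8 (limma adjusted p = 0.0551), SPL2 (0.0620) and PHO5 (0.0547) lost their calls in hpr1del and VTC3 (0.0865) in sub2del against tho2del; the cause was not tested.

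Directions turned only for differences that were not called. PHO84 in hpr1del became 0.0350 after quantile normalization, 0.0305 after array medians were subtracted and 0.12 with the empty-cell block, and lay between -0.24 and 0.12 with single arrays left out. With single arrays left out, PHO11 in hpr1del lay between -0.50 and 0.0091 and PHO8 in tho2del between -0.20 and 0.0090. PHO89 in tho2del became -0.16 with the empty-cell block. Between tho2del and hpr1del PHO3 became -0.0016 after array medians were subtracted and -0.0092 with the replicate block. Between sub2del and tho2del SPL2 became 0.26 after quantile normalization, 0.0383 after array medians were subtracted and, with single arrays left out, lay between -0.27 and 0.11. Between sub2del and hpr1del PHO8 became 0.0381 after array medians were subtracted and PHO11 0.23 with the empty-cell block.

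Other calls were lost after scaling: PHO8 in hpr1del with quantile normalization (limma adjusted p = 0.102) or medians subtracted (0.0965), SPL2 in hpr1del with medians subtracted (0.0831), and PHO8 (0.0535) and PHO11 (0.0688) in sub2del with quantile normalization, PHO11 also with medians subtracted (0.0509). With only the arrays compared, PHO8 (0.0713) and PHO11 (0.0854) in sub2del and VTC3 in sub2del against tho2del (0.0618) were lost. The calls of PHO84, PHO5, SPL2, PHO11, VTC3 and PHO3 in tho2del against WT held wherever they could be tested. Over all probe sets, the count called moved over 1.5-fold from 2581 to 4303 in hpr1del with array weights. In tho2del against hpr1del it moved from 1799 to 2836 with array weights, 2849 with only the arrays compared, 1192 with the empty-cell block, and 1134 and 1057 without tho2del replicate 1 and 2. In sub2del against tho2del it moved from 936 to 1575 with array weights, 540 and 471 without sub2del replicate 1 and 2, 505 and 369 without tho2del replicate 1 and 2, and 1670 without WT replicate 1. The array weights come from an estimate that stopped before its tolerance was reached, and where leaving out an array left 1 in a strain, that array was assumed to vary like those of the other strains. A setting added after the data were seen, which admitted strains with 1 filled array of a gene, gave no call in the text, since a lone array has no spread of its own. It is counted in the numbers of settings given for single genes. For genes with at least 2 values in both strains it changes only the adjusted p, so it adds little there. Signal over background was not known, so how far it limits the dim members PHO89, SPL2 and GIT1 could not be judged.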
